A study of Homo sapiens with 3 samples.

Results

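The zinc finger gene clusters of chromosome 19 were examined as PRCC-TFE3 binding regions. They were 3 intervals in hg19, chr19:19900000-24200000, chr19:52300000-53900000 and chr19:57600000-58900000, which are called 19p12, 19q13.41 and 19q13.43 here after the chromosome bands that hold most of each. They were 4.3, 1.6 and 1.3 Mb long, or 7.2 Mb in all. All peaks with a summit, or a midpoint where no summit was given, inside an interval were members. The clusters held 659 of the 338288 peaks in the 4 ChIP lists of the series. In the narrowPeak lists these were 185 of 109205 peaks in replicate 1 and 155 of 81300 peaks in replicate 2, and in the BED lists 171 of 84248 and 148 of 63535.

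ChIP-seq was performed in HK-2 cells, which derive from human proximal tubule epithelium of the kidney and are an established line, and which here expressed an HA-tagged PRCC-TFE3 fusion when given doxycycline. Every library came from cells given doxycycline at 0.2 µg/mL for 24 h, and the fusion was therefore introduced and not encoded by a rearranged TFE3 locus. The group of interest had 2 libraries precipitated through the HA tag, replicate 1 and replicate 2, which the study calls biological replicates, and 1 input DNA library from the same induced cells was the only background. Uninduced cells and an untagged precipitation were not analysed here. Library totals, estimated from the lists, were 12235754 tags in replicate 1, 7418533 in replicate 2 and 21692376 to 21698070 in input DNA, depending on the list. With 1 group of 2 libraries, no test between conditions was possible, and all intervals given are 95% intervals that cover counting error only. The tags carry no molecular identifiers, so they are not independent molecules.

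KRAB zinc finger genes form the largest family of transcription factors in mammals. Their proteins join a KRAB domain, which recruits the corepressor TRIM28 and with it histone H3 lysine 9 methylation, to a row of DNA-binding zinc fingers, and many of them bind transposable elements. The family grew by tandem duplication, so neighbouring genes in a cluster are often close copies. TFE3 is a bHLH leucine zipper factor of the MiT/TFE family. It binds E-box motifs such as CACGTG and is best known for lysosomal and autophagy genes.

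The clusters were checked by gene name. In the RefSeq gene order of GRCh38.p14, the runs of genes from ZNF506 to ZNF726, from ZNF577 to ZNF845 and from ZIM3 to ZNF497 held 36, 41 and 50 protein-coding genes. Of these 127 genes, 34, 33 and 43 were named as zinc finger genes, 110 in all. Which of them encode a KRAB domain was not examined. The peaks lie in hg19 and the annotation in GRCh38, so no peak was assigned to a gene, and the ends of a run may be off by a gene.

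Promoter sequences of the zinc finger genes are shown because they bear on where an E-box occurs in a cluster and on how alike its genes are. RefSeq promoters of 300 bases (250 before to 50 after the start, GRCh38.p14) were matched for 91 of the 110 genes, in 103 windows. The motif CACGTG, which reads the same on both strands, occurred in 6 windows (5.83%, 2.70% to 12.1%). It occurred in 7.28% of the other windows of chromosome 19 and in 7.26% of all 35116 windows. By cluster it was found in 0 of 27 windows of 19p12, in 1 of 34 windows of 19q13.41 and in 5 of 42 windows of 19q13.43. For 19p12, 3 counts over its windows, an approximate upper limit for a count of 0, is 11.1%, and the upper Wilson limit is 12.5%. The motif CATGTG, searched on both strands (CACATG on the other), cannot overlap CACGTG and occurred in 7 windows (6.80%), compared with 8.65% of the other windows of chromosome 19 and 11.1% of all windows. The single gene of 19q13.41 with CACGTG and 3 of the 5 genes of 19q13.43 follow, with the motif in capitals.
ZNF577 (chr19:51888137-51888201, minus strand): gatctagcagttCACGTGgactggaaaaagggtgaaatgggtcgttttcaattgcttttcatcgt
ZNF460 (chr19:57279840-57279939, plus strand): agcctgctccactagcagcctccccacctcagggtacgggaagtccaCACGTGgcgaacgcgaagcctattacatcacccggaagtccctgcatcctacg
ZNF587B (chr19:57830202-57830298, plus strand): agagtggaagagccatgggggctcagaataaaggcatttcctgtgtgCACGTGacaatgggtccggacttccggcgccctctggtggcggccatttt
ZNF814 (chr19:57889038-57889129, minus strand): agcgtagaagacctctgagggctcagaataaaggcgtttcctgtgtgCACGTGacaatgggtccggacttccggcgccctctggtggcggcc
The motif lay 238, 95, 50 and 45 bases before the start of ZNF577, ZNF460, ZNF587B and ZNF814. ZNF587 and ZSCAN18 were the other genes of 19q13.43 with the motif. These matches describe letters in a window and not binding, since no peak could be placed on these genes.

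ZNF587B and ZNF814 also had the most alike promoters among the 4095 pairs of genes, with 92.2% of 295 bases identical. The median pair shared 32.0%. Each identity is the highest over ungapped offsets of up to 20 bases, and over all windows of a gene, which also raises the values of unlike pairs. A total of 12 pairs shared at least 80%, and both genes of every such pair lay in the same cluster. In 19p12 the closest pair was ZNF714 and ZNF431, which shared 91% of 300 bases. Their last 100 bases before the start are shown with the 6 differing bases in capitals.
ZNF714 (chr19:21082103-21082202, plus strand): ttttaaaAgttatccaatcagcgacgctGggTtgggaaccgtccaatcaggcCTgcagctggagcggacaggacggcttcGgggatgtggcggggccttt
ZNF431 (chr19:21141940-21142039, plus strand): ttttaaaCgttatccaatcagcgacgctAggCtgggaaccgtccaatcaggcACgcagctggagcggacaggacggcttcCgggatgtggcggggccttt
In 19q13.41 the closest pair was ZNF701 and ZNF845, with 86% of 300 bases identical. How the authors' alignment placed reads that fit more than 1 copy is not given in the sources used here, so peak numbers and tags near such copies are uncertain.

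Peaks of PRCC-TFE3 were sparse in the clusters. In the narrowPeak lists of the authors, the clusters held 25.7 peaks per Mb in replicate 1 (22.1 to 29.7, n = 185) and 21.5 in replicate 2 (18.3 to 25.2, n = 155). The rest of chromosome 19, a length of 48.5 Mb after the longest stretch without a peak was left out, held 81.7 (79.1 to 84.2, n = 3961) and 68.4 peaks per Mb (66.1 to 70.8, n = 3320). The density in the clusters was thus 0.315 of that on the rest of the chromosome in both replicates, with intervals of 0.270 to 0.365 and 0.266 to 0.370. Without 19p12, the ratios rose to 0.519 and 0.544. Against chromosomes 1 to 22 and X outside the clusters, which held 35.98 and 26.8 peaks per Mb, the ratios were 0.714 (0.615 to 0.825) and 0.804 (0.682 to 0.941). No peak-free stretch was left out of the length of this wider reference, which lowers its density and raises the ratios to it. With the stretch on chromosome 19 kept in its length too, the ratios to the rest of that chromosome were 0.337 in both replicates. Against the wider reference the direction differed by cluster. The 19p12 cluster was at 0.401 (0.307 to 0.514) and 0.408 (0.300 to 0.543) of it, 19q13.41 at 0.990 (0.7498 to 1.28) and 1.12 (0.826 to 1.49), and 19q13.43 at 1.41 (1.09 to 1.80) and 1.72 (1.31 to 2.22).

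The clusters differed among themselves by more than counting error. The 19p12 cluster held 14.4 peaks per Mb in replicate 1 (11.1 to 18.5, n = 62) and 10.9 in replicate 2 (8.03 to 14.5, n = 47). The 19q13.41 cluster held 35.6 (27.0 to 46.2, n = 57) and 30.0 (22.1 to 39.8, n = 48). The 19q13.43 cluster held 50.8 (39.3 to 64.6, n = 66) and 46.2 (35.2 to 59.4, n = 60). Both replicates thus gave the same order, with 19p12 lowest. The density of 19q13.43 was 3.52 times that of 19p12 in replicate 1 (2.45 to 5.06) and 4.22 times in replicate 2 (2.83 to 6.32). The density of 19q13.41 was 2.47 times (1.69 to 3.599) and 2.74 times that of 19p12 (1.80 to 4.19). The distal pair was less clearly apart, with 19q13.43 over 19q13.41 at 1.43 (0.985 to 2.07) and 1.54 (1.04 to 2.30). All 3 clusters were below the rest of the chromosome, which was 5.66 and 6.26 times as dense as 19p12, 2.29 and 2.28 times as dense as 19q13.41, and 1.61 (1.26 to 2.08) and 1.48 times as dense as 19q13.43 (1.15 to 1.95). In the BED lists, the difference for 19q13.43 was within counting error, with ratios of 0.784 (0.605 to 1) and 0.840 (0.638 to 1.09) to the rest.

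**Figure D1:**
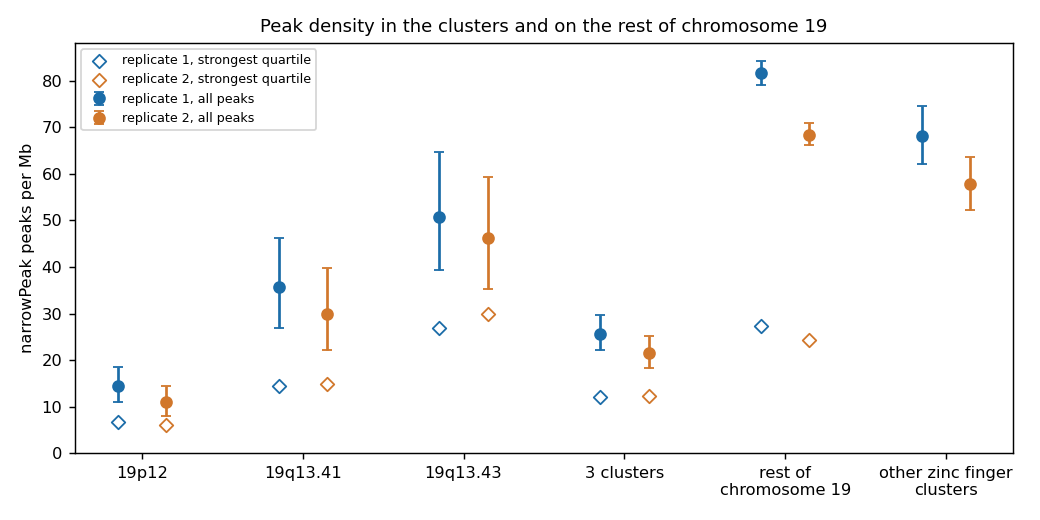
Peaks of the narrowPeak lists per Mb (y axis) in each cluster, in the 3 clusters together, on the rest of chromosome 19 and in 4 other zinc finger regions of chromosome 19 (x axis). Filled points are all peaks of replicate 1 (blue) and replicate 2 (orange) with 95% exact Poisson intervals, and open diamonds are the peaks in the strongest quartile of fold enrichment. All clusters sit below the rest of the chromosome for all peaks, whereas the diamonds of 19q13.43, at 26.9 and 30.0, reach those of the rest, at 27.3 and 24.3.

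The number of genes per Mb followed the same order as the peaks. The 3 runs held 8.37, 25.6 and 38.5 protein-coding genes per Mb of hg19 interval. Per protein-coding gene, replicate 1 had 1.72 narrowPeak peaks in 19p12, 1.39 in 19q13.41 and 1.32 in 19q13.43, and replicate 2 had 1.31, 1.17 and 1.20. On the rest of chromosome 19 there were 2.99 and 2.51 peaks per gene over 1324 genes. The clusters thus lay near each other on this scale and below the rest in both replicates, at 1.46 and 1.22 over all 127 genes. The part of gene number in the peak density was not tested.

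Within 19p12 the peaks were uneven along the interval. Counted in steps of 1 Mb from its start, replicate 1 had 15, 23, 6 and 13 peaks and replicate 2 had 15, 16, 4 and 7. The last 0.3 Mb held 5 in each. The longest stretch without a peak in any ChIP list, chr19:22447481-23254102, measured 807 kb. This was longer than any other peak-free stretch on the rest of chromosome 19 (429 kb) apart from the one of 3.41 Mb that was left out of its length. The longest such stretches were 140 kb in 19q13.41 (chr19:53696762-53836499) and 68.1 kb in 19q13.43 (chr19:57615640-57683694). In windows of 100 kb, 19p12 had a median of 1 peak in each replicate, and 14 and 18 of its 43 windows were empty. In 19q13.41 the median was 3 in each replicate with 1 empty window of 16, and in 19q13.43 it was 5 in each with 0 empty of 13. On the rest of the chromosome the medians were 7 and 6, and 34 and 46 of 481 windows were empty. Of the 72 cluster windows, 5 and 8 reached the median of the rest.

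The densest windows showed where the members gathered. In 19p12 it was chr19:21200000-21299999 with 5 and 6 peaks, in 19q13.41 chr19:53100000-53199999 with 8 and 7, and in 19q13.43 chr19:58800000-58899999 with 12 and 9. In replicate 1 alone, chr19:21600000-21699999 in 19p12 held more, with 6 peaks, but it held 2 in replicate 2. The median of the rest, 7 in replicate 1 and 6 in replicate 2, was reached by 0 and 1 windows of 19p12. It was reached by 2 and 2 windows of 19q13.41 and by 3 and 5 of 19q13.43. The median distance from a summit to the one before it was 21.6 kb in replicate 1 and 26.3 kb in replicate 2 over the clusters, compared with 5.35 and 6.33 kb on the rest of the chromosome.

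**Figure D2:**
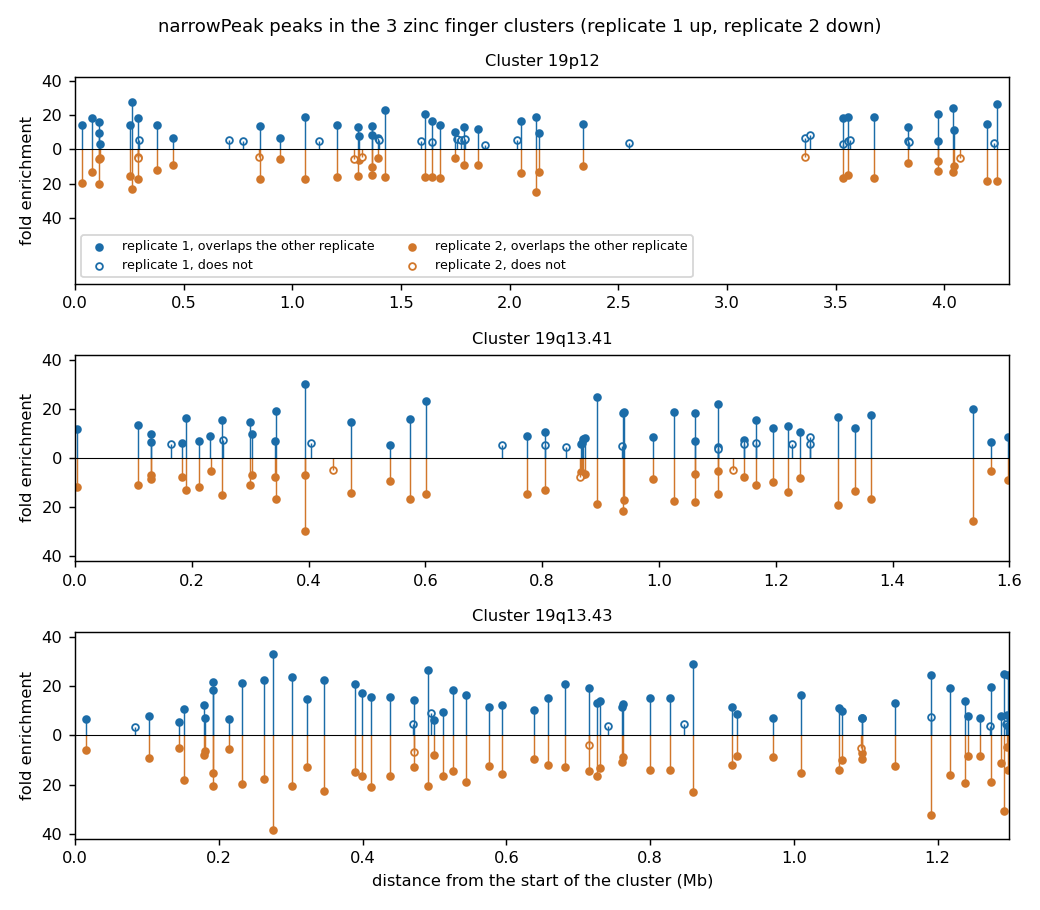
Each narrowPeak peak of the 3 clusters by its distance from the start of the cluster in Mb (x axis) and its fold enrichment (y axis), with replicate 1 drawn upward in blue and replicate 2 downward in orange. Filled points overlap a peak of the other replicate and open points do not. The open points lie near the zero line, the highest at 9.12 in replicate 1 and 7.68 in replicate 2, and 19p12 has an empty stretch of 807 kb to the right of its middle.

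The peaks that were called in the clusters were of higher fold enrichment than those elsewhere on the chromosome. Fold enrichment is the ratio of the ChIP signal to the expected signal at the summit, as deposited by the authors. Its median was 10.6 in replicate 1 (8.65 to 12.96, range 2.58 to 33.2) and 12.8 in replicate 2 (10.8 to 13.9, range 3.84 to 38.3) over the clusters. On the rest of the chromosome it was 8.41 (8.14 to 8.62) and 8.48 (8.34 to 8.84). In 19q13.43 the medians were 12.7 (9.76 to 15.3) and 13.45 (11.2 to 15.4), above the rest in both replicates. In 19p12 they were 9.94 (6.36 to 14.3) and 12.8 (9.03 to 15.6), and in 19q13.41 9.10 (6.87 to 12.3) and 10.9 (7.82 to 13.7). The replicate 1 intervals of these 2 clusters include the median of the rest, and in replicate 2 only the interval of 19q13.41 does. Without 19q13.43, the ratio of the cluster median to that of the rest went from 1.27 (1.03 to 1.54) to 1.14 (0.883 to 1.46) in replicate 1, and it was 1.39 (1.06 to 1.62) in replicate 2. The highest peak of the rest was at 46.5 and 48.5, above every cluster peak.

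When peaks were sorted into quartiles of fold enrichment over the whole genome, the strongest quartile began at 11.8 in replicate 1 and 10.99 in replicate 2. It took 87 of 185 cluster peaks in replicate 1 (47.03%, 39.97% to 54.2%) and 89 of 155 in replicate 2 (57.4%, 49.5% to 64.9%). On the rest of chromosome 19 it took 33.5% and 35.6%, so the clusters were higher by 13.6 percentage points (6.36 to 20.9) and 21.8 (13.8 to 29.5). The weakest quartile took 31 and 20 cluster peaks, or 16.8% and 12.9%, compared with 22.6% and 20.1%. The sparsity of the clusters thus differed with peak strength. Counting the strongest quartile alone, the clusters held 12.1 and 12.4 peaks per Mb, which was 0.442 (0.352 to 0.550) and 0.508 (0.405 to 0.630) of the rest. Counting the weakest quartile alone, they held 0.233 (0.158 to 0.334) and 0.202 (0.123 to 0.315) of the rest.

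The 19q13.43 cluster showed this most clearly. Its strongest-quartile peaks numbered 26.9 and 30.0 per Mb, compared with 27.3 and 24.3 on the rest of the chromosome, at ratios of 0.986 (0.684 to 1.38) and 1.23 (0.872 to 1.69). A difference from the rest was not detectable for these peaks at this number of peaks. Its weakest-quartile peaks were at 0.292 and 0.224 of the rest, from 7 and 4 peaks. For 19p12 the strongest quartile was at 0.247 (0.165 to 0.356) and 0.248 (0.162 to 0.366) of the rest, and for 19q13.41 at 0.526 (0.332 to 0.793) and 0.616 (0.393 to 0.921). The weakest quartile was at 0.227 (0.134 to 0.361) and 0.186 (0.0926 to 0.336) for 19p12. For 19q13.41 it was at 0.203 (0.0744 to 0.444) and 0.228 (0.0737 to 0.534). In 19p12, the longest cluster, the sparsity was thus similar in the strongest and weakest quartiles.

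**Figure D3:**
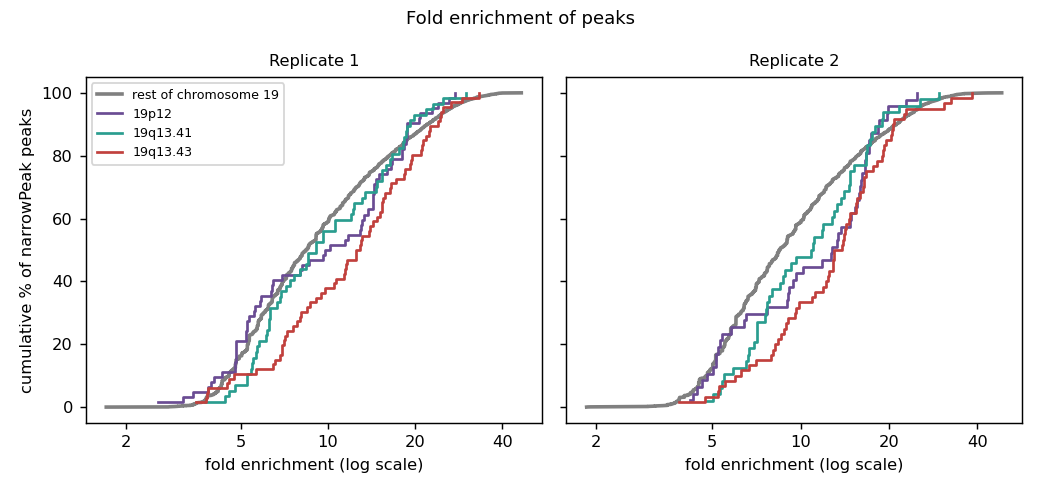
Cumulative percentage of narrowPeak peaks (y axis) up to each fold enrichment (x axis, log scale) in replicate 1 (left) and replicate 2 (right), for each cluster and for the rest of chromosome 19 in grey. The curve of 19q13.43 runs to the right of the grey curve over most of its range, with medians of 12.7 and 13.45 against 8.41 and 8.48, and the grey curve extends furthest, to 46.5 and 48.5.

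Tags gave a similar account. The BED lists count the tags in windows of 208 bp in replicate 1 and 212 bp in replicate 2. The median was 27 tags per cluster peak in replicate 1 (22 to 30, range 9 to 81) and 21 in replicate 2 (19 to 24, range 7 to 70), compared with 21 (20 to 21) and 17 (16 to 17) on the rest of the chromosome. By cluster, 19q13.43 had medians of 31.5 (27 to 36) and 25 tags (21 to 28), 19p12 had 27 (17 to 30) and 23 (17 to 25), and 19q13.41 had 19 (16 to 24) and 15.5 (12 to 21). The 19q13.43 intervals lay above the rest in both replicates, and those of 19q13.41 included it in both. The ratio of the cluster median of tags to that of the rest was 1.29 (1.05 to 1.43) and 1.24 (1.12 to 1.41). Without 19q13.43, it was 1.05 (0.857 to 1.29) and 1.12 (0.824 to 1.35), so a difference was not detectable without this cluster. Without 19q13.41, it was 1.36 and 1.38. The medians of 19p12 were also above the rest, but its intervals included the median of the rest in both replicates. Together the cluster peaks held 4767 tags in replicate 1 and 3277 in replicate 2, which was 0.0390% and 0.0442% of the library totals.

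In 19q13.43 the sum of tags per Mb was near that of the rest of the chromosome, and in the other clusters it was lower. Scaled to 10000000 tags of library, the peaks of 19q13.43 held 1381 tags per Mb in replicate 1 and 1607 in replicate 2, and those of the rest of the chromosome held 1370 and 1465. The rest was therefore at 0.992 and 0.911 of 19q13.43. The rest exceeded 19q13.41, with 636 and 725 tags per Mb, by 2.15 and 2.02 times, and 19p12, with 252 and 271, by 5.43 and 5.40 times. Over all clusters the sum was 541 and 614 tags per Mb, compared with 489 and 457 on chromosomes 1 to 22 and X outside them. The latter length keeps all peak-free stretches, which lowers these values. These sums run over peaks that were called in each library separately, with 52 and 41 BED peaks in 19p12, 53 and 48 in 19q13.41, and 66 and 59 in 19q13.43.

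The local background around the peaks was lower in the clusters than on the rest of chromosome 19. The lists give the fold of each peak over the tags in its surroundings, which had a median of 20.9 (17.0 to 23.1) and 26.3 (23.1 to 29.5) in the clusters and of 11.6 (11.3 to 11.98) and 13.7 (13.42 to 14.2) on the rest of the chromosome. The local background behind these folds, in tags per 10000000 for a window of peak width, had a median of 1.06 (0.989 to 1.11) and 1.05 (0.993 to 1.20) in the clusters and of 1.48 (1.44 to 1.53) and 1.66 (1.61 to 1.69) on the rest. It was lowest in 19p12, at 0.868 and 0.905, followed by 19q13.41, at 1.01 and 0.993. In 19q13.43 it was 1.22 and 1.28, near the 1.20 and 1.28 on chromosomes 1 to 22 and X outside the clusters. The part of this background in the peak calls was not tested.

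The strongest sites of the clusters were taken from the regions that had a peak in both replicates. The highest lay in 19q13.43 at chr19:57874458-57875013, with a fold enrichment of 33.2 in replicate 1 and 38.3 in replicate 2, and with 81 and 70 tags. Its summits in the replicates were 0 bp apart, and 17 of the 2909 shared regions on the rest of the chromosome were higher by the lower of their folds. The others of this cluster were chr19:58891945-58892856, at 24.99 and 30.8 with 60 and 59 tags, and chr19:58789836-58790443, at 24.6 and 32.5 with 60 and 62 tags. Their tags were nearly equal in the replicates although the replicate 2 library was smaller, and 142 and 155 shared regions of the rest were higher.

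In 19q13.41 the highest site was chr19:52692497-52693763, at 30.0 and 29.7, with 70 and 52 tags, and 47 shared regions of the rest were higher. It was the widest of these sites, at 1267 bp. Next were chr19:53836500-53837080, at 19.8 and 25.4 with 42 and 41 tags, and chr19:53193645-53194139, at 24.96 and 18.9 with 54 and 32 tags. The former begins where the longest peak-free stretch of the cluster ends, and the latter lies in its densest window.

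In 19p12 the highest site was chr19:20162576-20163603, at 27.6 and 22.9, with 54 and 36 tags. It was followed by chr19:22018659-22019289, at 18.6 and 24.98 with 35 and 39 tags, and chr19:24140391-24141004, at 26.2 and 18.3 with 54 and 28 tags. Above these sites stood 211, 419 and 430 shared regions of the rest, compared with 47, 363 and 399 for the sites of 19q13.41. Input DNA had 0 to 2 tags at each of the 9 sites. The count was 0 at all 3 sites of 19p12. By replicate 1 tags, the matched BED peaks with the most were at the highest sites of 19q13.43 and 19q13.41, followed by a peak at chr19:58090292-58090499 in 19q13.43 with 69 tags in replicate 1 and 39 in replicate 2. By replicate 2 tags, the other named sites of 19q13.43, with 62 and 59, stood above the latter 2.

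Input tags at peaks differed by less than counting error between the clusters and the rest of the chromosome. It had 1.02 tags per replicate 1 peak in the clusters (0.872 to 1.18) and 0.945 on the rest of the chromosome, at a ratio of 1.08 (0.919 to 1.26). At replicate 2 peaks the values were 0.845 (0.703 to 1.01) and 0.953, at a ratio of 0.886 (0.734 to 1.06). Peaks with 0 input tags made up 43.3% and 48.0% of cluster peaks and 42.6% and 43.6% of the others. By cluster, input was 0.75 and 0.610 tags per peak in 19p12, 1 and 0.729 in 19q13.41, and 1.24 and 1.10 in 19q13.43, the same order as the peak density. In 19q13.43 it was above the rest at replicate 1 peaks (ratio 1.31, 1.04 to 1.64) and in 19p12 below it at replicate 2 peaks (0.640, 0.413 to 0.947). These counts are known at peaks only, and the part of input coverage in the density of peaks was not tested. Of the 286 input peaks, 10 lay on chromosome 19 and 2 in the clusters. Both were near the end of 19p12, at chr19:24183741-24184046 with 9.22 tags per 10000000 and at chr19:24184661-24184966 with 9.68. No narrowPeak peak overlapped either, and 1 BED peak of replicate 1 overlapped the first.

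Replicate recovery was defined as the percentage of peaks from 1 replicate that met a peak of the other with at least 1 bp in common. In the clusters 141 of 185 replicate 1 peaks were recovered (76.2%, 69.6% to 81.8%), compared with 65.3% over the whole genome and 74.7% (73.4% to 76.1%) on the rest of chromosome 19. The difference from the rest was 1.49 percentage points (-5.27 to 7.22). Of replicate 2 peaks 142 of 155 were recovered (91.6%, 86.2% to 95.03%), compared with 88.5% over the whole genome and 90.4% on the rest of the chromosome, at a difference of 1.22 points (-4.30 to 4.80). Both intervals include 0, but the call changed with the definition. In replicate 1 the difference was 7.71 points (0.962 to 13) for peaks with q below 1e-05. In replicate 2 it was 7.06 points (0.928 to 11.4) with a reciprocal overlap of 50%, 7.24 points (1.11 to 11.6) with summits within 100 bp and 6.95 points (0.925 to 11.2) with equal numbers of peaks. The BED lists gave 80.1% and 92.6% for the clusters, against 66.1% and 87.6% over the whole genome and 73.9% and 88.6% on the rest. Their differences from the rest were 6.21 points (-0.569 to 11.7) and 3.98 points (-1.53 to 7.45).

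The 3 clusters spread more widely than their sum. In 19p12, 40 of 62 replicate 1 peaks were recovered (64.5%), in 19q13.41 44 of 57 (77.2%) and in 19q13.43 57 of 66 (86.4%). The last was 11.6 points above the rest of the chromosome (1.26 to 18.1), and 19p12 was 10.2 points below it, with an interval of -22.7 to 0.617. Without 19p12, the difference of the clusters from the rest moved to 7.39 points (-0.441 to 13.3). In replicate 2, 40 of 47 (85.1%), 45 of 48 (93.8%) and 57 of 60 peaks (95%) were recovered, in the same order. The BED lists kept this order in replicate 1 but not in replicate 2. They gave 75%, 79.2% and 84.8% for the 3 clusters in replicate 1, where 19p12 was 1.10 points above the rest (-12.2 to 11), and 95.1%, 87.5% and 94.9% in replicate 2, where 19p12 was highest and 19q13.41 lowest.

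Recovery followed fold enrichment. In the strongest quartile all 87 replicate 1 peaks and all 89 replicate 2 peaks of the clusters were recovered, compared with 99.8% and 100% on the rest. In the weakest quartile 4 of 31 replicate 1 peaks were recovered (12.9%, 5.13% to 28.9%), compared with 33.3% on the rest, and the difference was -20.4 points (-28.8 to -4.16). Of replicate 2 peaks in this quartile 9 of 20 were recovered (45%), compared with 67.1%, and the difference was -22.1 points (-41.6 to -1.01). Over the 3 clusters together, weak peaks were thus recovered less often than on the rest of the chromosome in both replicates. Their median folds, 4.56 and 5.07, were close to the 4.62 and 4.80 of the rest. The difference rests on 4 and 9 recovered peaks, and 19p12 held 18 of the 31 and 11 of the 20 peaks. The replicate 2 limit of -1.01 is close to 0, and intervals of this kind covered 90.5% in simulated sets. In quartiles 2 and 3 the differences had intervals that include 0. A cluster peak that was not recovered had a median fold of 5.22 in replicate 1 (n = 44) and 4.81 in replicate 2 (n = 13), and a recovered peak 13.9 and 13.2.

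**Figure D4:**
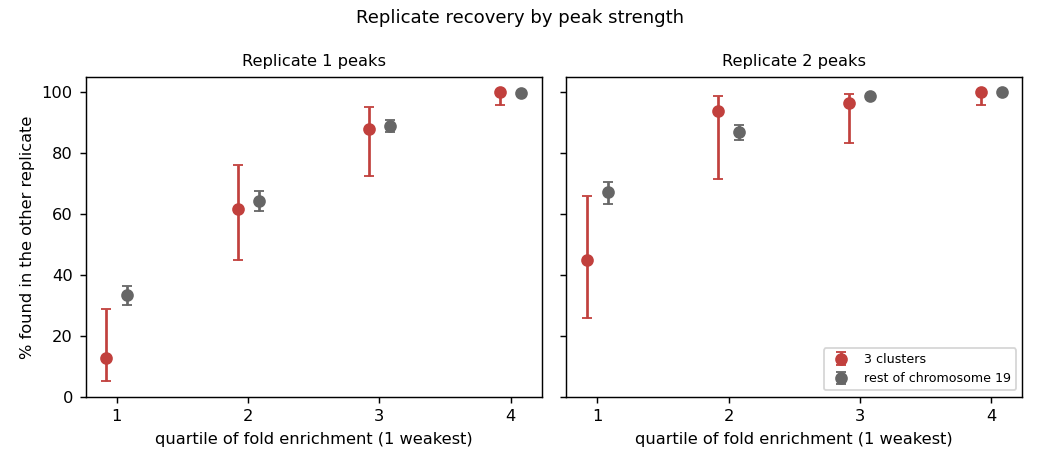
Percentage of narrowPeak peaks found in the other replicate (y axis) by quartile of fold enrichment over the whole genome (x axis, 1 weakest) for replicate 1 (left) and replicate 2 (right), with 95% Wilson intervals. The clusters (red) and the rest of chromosome 19 (grey) are apart in the weakest quartile, at 12.9% against 33.3% and 45% against 67.1%, and meet in the strongest.

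Merging the replicates gave 198 regions in the clusters, of which 141 were shared (71.2%, 64.5% to 77.1%), 44 came from replicate 1 alone and 13 from replicate 2 alone. On the rest of the chromosome 68.8% were shared. Shared regions numbered 9.30 per Mb in 19p12, 27.5 in 19q13.41 and 43.8 in 19q13.43, or 19.6 over the clusters (16.5 to 23.1), against 59.97 on the rest, at a ratio of 0.327 (0.274 to 0.387). The 19p12 cluster had 40 shared regions of 69 (58.0%), and 19q13.43 had 57 of 69 (82.6%). Summits of shared regions lay a median of 22 bp apart in the clusters and 29 bp on the rest, and 97.2% and 92.0% were within 100 bp. Fold enrichment in the replicates had a Spearman correlation of 0.825 over the 141 shared regions and 0.848 over those of the rest. This describes regions that share the same input library and are not independent replicates.

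Tags at the same place were also compared. Of the BED peaks, 137 in the clusters were matched between replicates and held 4345 tags in replicate 1 and 3171 in replicate 2. Replicate 2 thus gave 42.2% of their tags (41.1% to 43.3%), close to the 41.3% (41.0% to 41.6%) at matched peaks of the rest. The shares were 41.8%, 42.5% and 42.2% in 19p12, 19q13.41 and 19q13.43, so no cluster stood apart. The Spearman correlation of tags was 0.836 in the clusters and 0.867 on the rest.

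**Figure D5:**
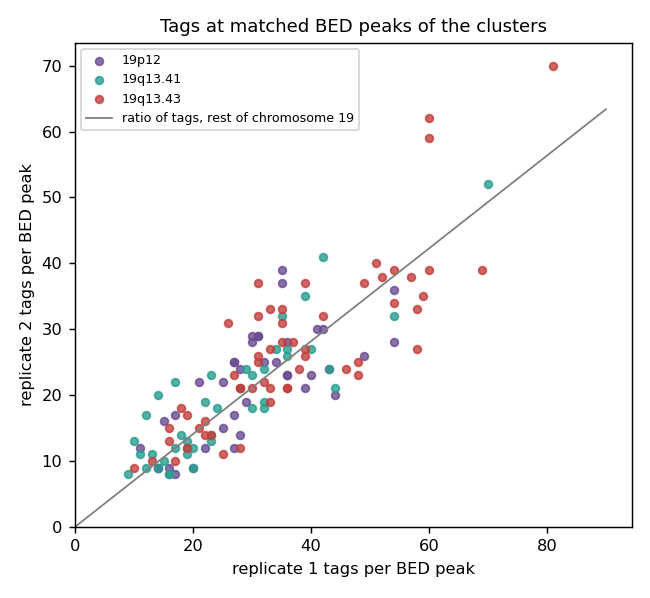
Tags per matched BED peak of the clusters in replicate 1 (x axis) and replicate 2 (y axis), 137 points coloured by cluster, with a grey line for the ratio of summed tags on the rest of chromosome 19. The points spread along the line, the highest at 81 and 70 tags, and all clusters lie on both sides of it.

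The overlap between the kinds of list was higher in the clusters for narrowPeak peaks and not for BED peaks. Of the narrowPeak peaks in the clusters 85.4% (79.6% to 89.8%) in replicate 1 and 90.3% (84.6% to 94.0%) in replicate 2 also lay over a BED peak from their own library, compared with 75.7% and 75.2% on the rest of the chromosome. Of the BED peaks 92.98% (88.1% to 95.9%) and 94.6% (89.7% to 97.2%) overlapped a narrowPeak peak, compared with 96.9% and 96.3%. The widths of the narrowPeak peaks had medians of 340 and 328 bp in the clusters and 314 bp on the rest in both replicates.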

How the data were processed

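HA-PRCC-TFE3 ChIP-seq peak lists of 2 replicates and 1 input DNA library were analysed. The authors called peaks for each library separately, and the methods name MACS in Strand NGS with input as control. The methods also give a p-value threshold for binding sites, which they call stringent. Whether the deposited lists were cut at that threshold was not examined. The aligner and the handling of duplicates are not given in the sources used here, and hg19 is from the submitters' processing notes. In the deposited narrowPeak lists each peak had a fold ratio and a −log10 p and −log10 q value, the lowest −log10 q being 1.31 and 1.35. The deposited BED lists, whose caller is not named and whose column order is that of HOMER, held a count of tags (column 8), a signal in tags per 10000000, p-values and ratios over input and local background. Their header names were displaced, so columns were read by position.

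Library totals were the summed tags over the summed scaled signal. Input tags per peak were tags over the fold over input, divided by the value of 1 input tag as estimated from the list. The lowest value, a fraction of this unit, was taken as 0 tags, and the shares of peaks with 0 input tags rest on this. Of the other values 100% were whole within 0.05, or within 0.05 times the count where it was above 1. This tolerance widens with the count, so it does not check high counts. Peaks were assigned by summit or midpoint, and none crossed an edge. Densities have exact Poisson intervals, ratios of densities conditional binomial intervals, shares Wilson intervals, their differences Newcombe intervals, and medians order-statistic intervals (95%). No p-value was computed. Positions are named by a rule: the 3 shared regions per cluster with the highest lower fold, the 3 matched BED peaks with most tags, the densest window and longest empty stretch of each cluster, and all input peaks in the clusters. The members and lists were chosen with earlier results of these data known. Other zinc finger regions were taken as 9 to 10, 11 to 13, 36 to 39 and 44 to 45 Mb. Python 3.11.15, numpy 2.4.6, pandas 2.3.3, scipy 1.17.1 and matplotlib 3.10.9 were used. The intervals were tried on 200 simulated sets. They covered the true value in 96.5% for density ratios, 97.5% for medians and 90.5% for recovery differences. The recovery intervals thus covered less than 95% there, and their limits close to 0 are to be read with care. Simulated peaks fell independently and evenly along a chromosome. Observed peaks were uneven, with quartiles of 3 and 12 peaks per 100-kb window on the rest of chromosome 19 in replicate 1. The simulated sets therefore cannot check the density intervals for peaks that lie in clumps.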

Additional observations from a re-analysis of the deposited data

How the results depend on the processing

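Of 98 alternative values for 14 results, 78 stayed within the counting interval and 20 moved further. The difference turned in 6 of them, 4 of 22 for recovery and 2 of 10 for input tags, results whose own intervals include no difference, and in 0 of the 30 for density and the 36 for medians. The density ratio of the clusters to the rest of chromosome 19, 0.315 in both replicates, was 0.367 and 0.380 with the BED lists. It was 0.442 and 0.508 for the strongest quartile alone (chosen after seeing the data). It was 0.519 and 0.544 without 19p12, and 0.247 and 0.235 without 19q13.43. Against chromosomes 1 to 22 and X, with all peak-free stretches kept in their length, it was 0.714 and 0.804. Leaving out either replicate left the mean ratio at 0.315. The ratio of shared regions, 0.327, was 0.398 with the BED lists, 0.581 without 19p12 and 0.237 without 19q13.43. The recovery difference of replicate 1, 1.49 points, was 7.71 for peaks with q below 1e-05 and 7.39 without 19p12. That of replicate 2, 1.22 points, was 7.06 with a reciprocal overlap of 50%, 7.24 with summits within 100 bp, 6.95 with equal numbers of peaks and -6.82 when standardised to the fold deciles of the rest, where replicate 1 gave -4.62. Without 19q13.43, they were -4.14 and -0.918. The input ratio of replicate 2, 0.886, was 0.707 without 19q13.43 and 1.02 when standardised to the tag deciles of the rest, and that of replicate 1, 1.08, was 0.927 without 19q13.43. The causes were not tested.

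No paired analysis was possible because the ChIP libraries form 1 group and input DNA has a label without a replicate number. The planned share of peaks near transcription start sites was not run, since no hg19 annotation was used here. The number of peaks limits each quartile below the strongest, with 16 to 34 cluster peaks.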

Other observations

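Zinc finger genes also occur elsewhere on chromosome 19, where 145 further protein-coding genes carry a zinc finger name. In 4 regions of such genes at 9 to 10, 11 to 13, 36 to 39 and 44 to 45 Mb, 7 Mb in all, there were 68.1 narrowPeak peaks per Mb in replicate 1 (62.2 to 74.5, n = 477) and 57.7 in replicate 2 (52.2 to 63.6, n = 404). These densities were 0.835 (0.757 to 0.918) and 0.843 (0.759 to 0.935) of the rest of the chromosome, which includes these regions, and were higher than that of each of the 3 clusters. For 19q13.43, at 50.8 (39.3 to 64.6) and 46.2 (35.2 to 59.4), the intervals overlapped with those of these regions. In the BED lists the regions held 55.1 (49.8 to 60.9) and 48.3 (43.3 to 53.7), against 50.8 (39.3 to 64.6) and 45.4 (34.5 to 58.5) in 19q13.43. Their peaks had a median fold enrichment of 9.55 in replicate 1 (8.56 to 10.6) and 10.02 in replicate 2 (9.15 to 10.8). On the rest it was 8.41 (8.14 to 8.62) and 8.48 (8.34 to 8.84). Both intervals lay above the median of the rest, though in replicate 1 the intervals overlapped. Tags per BED peak had medians of 25 (23 to 28) and 19 (17 to 21), compared with 21 and 17 on the rest. Higher medians were therefore not particular to the 3 clusters. In the other replicate 77.6% and 93.6% were recovered, which was above the rest by 2.84 points (-1.33 to 6.61) and 3.17 points (0.188 to 5.44). The regions were set in whole Mb and also hold genes of other families, and their genes were not counted.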
